A study of Chlamydomonas reinhardtii with 12 samples.

Results

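A set of 60 genes of the green alga *Chlamydomonas reinhardtii* was examined that were almost without reads in the wild type and were read in the *phot* mutant. Its members were chosen by their measured levels alone. The count of each gene was divided by the total of its library and expressed as counts per 1000000 (CPM). Of 17741 genes in the table, 3401 (19.2%) stayed under 1 CPM in each of the 6 wild-type libraries, and 305 of these averaged at least 1 CPM in the mutant. The 60 with the largest average of the 2 *phot* group means form the set. Because the mutant and wild-type levels made the choice, the contrast between the strains is given below as a description without a test. The tests concern the difference between the light conditions within the mutant, which the choice did not use as such. The choice did use the average of the 2 *phot* group means, which also admits genes that are high in only 1 condition. The light response in the wild type, whose level the choice capped, and its difference from that of the mutant are given beside them as a description. So are the positions of the genes in the genome and the study's gene lists.

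*PHOT1* encodes phototropin, a blue-light receptor in which light-sensing LOV domains control an attached protein kinase. In *Chlamydomonas*, a unicellular alga, phototropin is known for its part in the sexual life cycle, in the behaviour of the eyespot and in the high-light induction of photoprotective light-harvesting proteins of the LHCSR family.

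The libraries were stranded mRNA libraries in 4 groups of 3: the *phot* mutant in high light (*phot* HL), the *phot* mutant in low light (*phot* LL), the wild type CC-125 in high light (WT HL) and CC-125 in low light (WT LL). Both strains were first grown in an acetate medium and then moved to Sueoka's high salt medium at 5 µmol photons per m2 per s (LL). Cells were collected there and again after 60 min at 300 µmol photons per m2 per s (HL). The mutant is a single strain depleted of *PHOT1*, its parental strain is not given in the sources used here, and no complemented line is among these libraries, so the loss of phototropin and any other difference between the strains cannot be told apart. Libraries are called A, B and C within a group, which are names only. Total counts lay between 27136674 and 33906264, so that 1 CPM stood for about 27 to 34 reads. *PHOT1* itself (Cre03.g199000) had 5.23 to 5.52 CPM in the 3 *phot* HL libraries and 4.24 to 5.5 CPM in *phot* LL, against 221 to 241 CPM in WT HL and 214 to 272 CPM in WT LL, so each library carried the level of its label.

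The levels of the set were uneven in the mutant. One gene, Cre06.g292249, averaged 121 CPM and held 23.5% of the summed level, while the second averaged 18.7 CPM, the median was 5.27 CPM and the lowest was 3.58 CPM. Only 10 members averaged 10 CPM or more. CPM is not corrected for gene length, so this order is one of read shares and not of transcripts per gene. In all, 54 members were above 1 CPM in every *phot* library, and the counts of the 60 in a *phot* library ran from 5 to 4920.

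The 60 members summed to 487, 532 and 459 CPM in *phot* HL and 556, 522 and 530 CPM in *phot* LL, against 13.9, 15.8 and 14.1 CPM in WT HL and 29.4, 27.4 and 17.3 CPM in WT LL. In the mutant the sums of the light conditions overlapped. In the wild type each LL sum lay above each HL sum, with WT LL library C closest to the HL libraries. Without Cre06.g292249 the *phot* sums were 354, 387 and 322 CPM in HL and 466, 406 and 428 CPM in LL, which did not overlap.

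Near silence in the wild type was not absence. The highest wild-type value of a member ranged from 0.0997 to 0.995 CPM, at or above 0.5 CPM in 38 members, and the 6 wild-type libraries together held 7 to 151 reads per member with a median of 54. No member was at 0 in all 6 wild-type libraries, and 13 were at 0 in at least 1 of them. The highest wild-type value fell in an LL library for 43 of the 60. By construction the mutant lay higher: in 59 members every *phot* library was above every WT library, beside 32.3% of the 14251 genes tested below, and the mean in the mutant was 4.97 to 175 times the mean in the wild type, with a median of 20.3 that leaves out 1 member at the detection floor. The exception to full separation was Cre07.g325760, whose *phot* LL libraries overlapped the wild type. The ratios and the separation use CPM by library total. On that scale the median difference over all genes averaging at least 1 CPM was already 0.52 (log2) toward *phot*. These are bulk libraries, so a transcript in fewer cells and less transcript in every cell cannot be told apart.

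**Figure D1:**
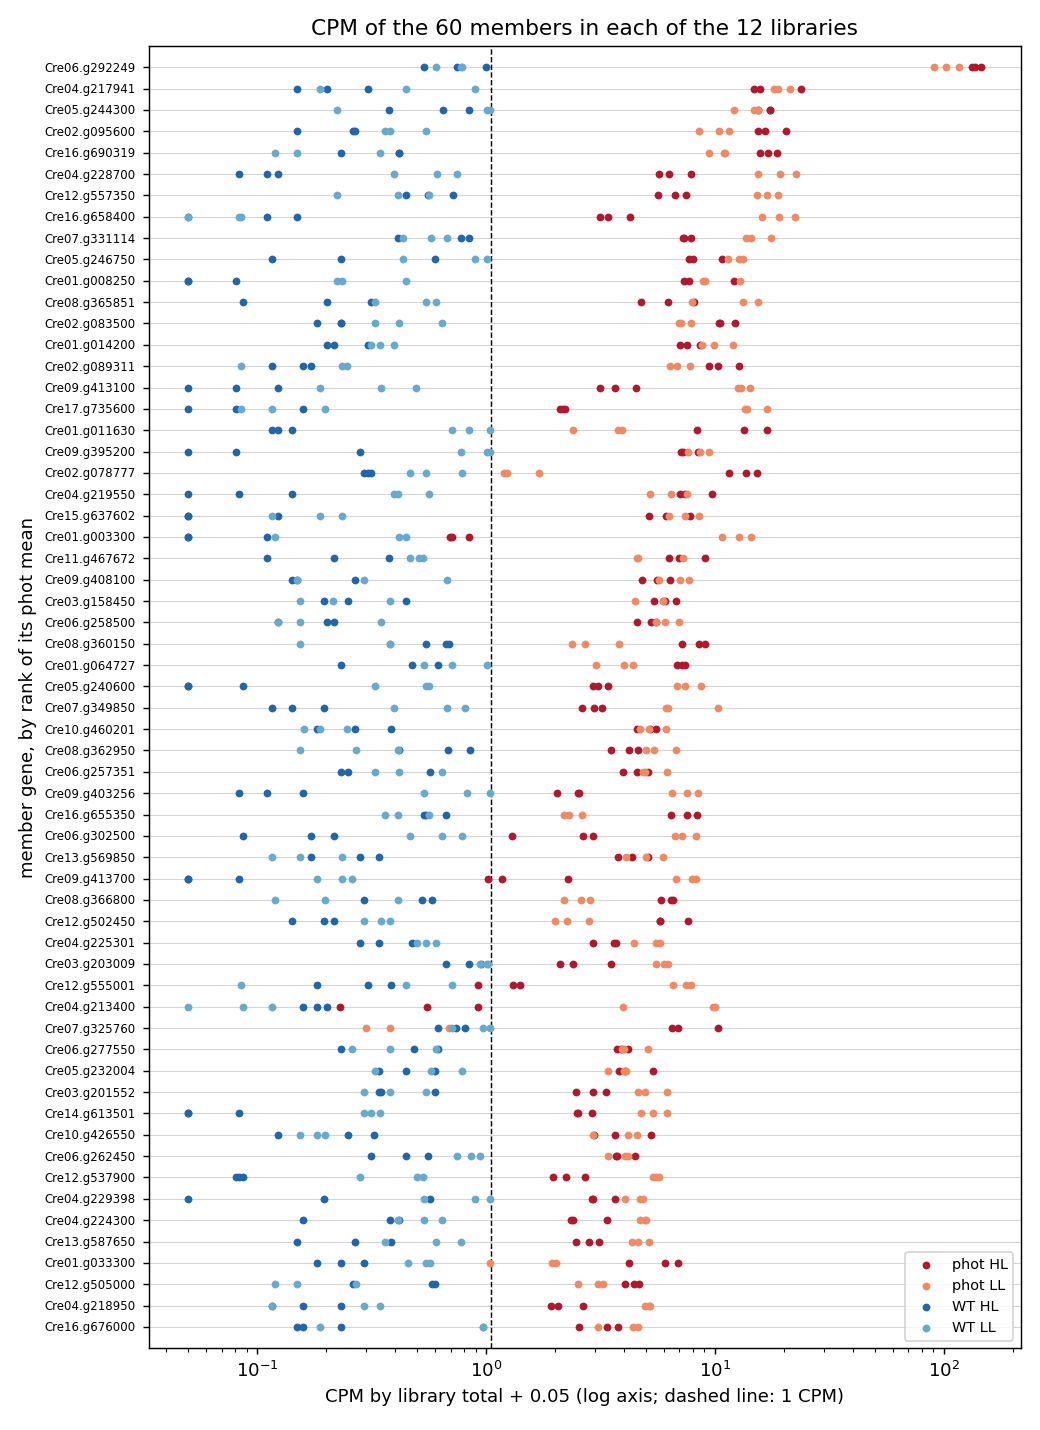
CPM by library total plus 0.05 (log axis) of the 60 members, ordered downward by their mean in *phot*, with 1 point for each of the 12 libraries and a dashed line at 1 CPM. The wild-type points stay left of the line by the choice of the set, the *phot* points lie to its right in 54 members, and Cre06.g292249 stands apart at the top with 90.3 to 145 CPM in *phot*.

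The edges of the set were gradual. The members ranked last were Cre12.g505000, Cre04.g218950 and Cre16.g676000, with averages in the mutant of 3.61, 3.61 and 3.58 CPM. The next genes down, Cre13.g604250, Cre02.g108550 and Cre10.g420650, had 3.56, 3.48 and 3.43 CPM. On the wild-type side the genes of highest *phot* level that passed 1 CPM in a single wild-type library were Cre12.g506750 (55.8 CPM in *phot*, highest WT value 1.06 CPM), Cre15.g637850 (16.1 and 1.03 CPM) and Cre04.g217939 (10.1 and 1.51 CPM). A set cut at another level would therefore hold partly different genes.

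To ask whether these transcripts depended on light in the mutant, HL was compared with LL within *phot* by edgeR's quasi-likelihood test. The fit covered all 12 libraries and the 14251 genes above 1 CPM in at least 4 libraries. Library sizes were scaled with TMM factors (trimmed mean of M-values), p-values were adjusted over all of these genes by the Benjamini-Hochberg method, and the threshold was 0.05. Fold changes are on the log2 scale, HL over LL, with their standard error (SE). A member could enter only through its *phot* libraries, so the 3 members read mainly in 1 light condition were not tested and are described separately.

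Among the 57 tested members, 14 rose in *phot* HL, 24 fell and 19 did not pass. Over all tested genes 31.2% rose and 27.7% fell, 58.9% in either direction, and the members gave 24.6% and 42.1%, or 66.7% in all. The median fold change of the members was -0.24, beside 0.03 for all tested genes, and their range was -2.81 to 3.31. Changes of at least 1 on the log2 scale were called upward in 7 members and downward in 16, while they made up 8.94% and 10.04% of all tested genes. The excess of falls depended on the limit of the set: at a wild-type limit of 0.5 CPM, 16 of the 48 tested genes rose and 14 fell. The counts also depended on the ranking: by the lowest *phot* library instead, 12 of 60 tested genes rose and 18 fell. The set was therefore not of one kind. It held genes at their highest in HL, genes at their highest in LL, and genes that were not called in either direction.

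**Figure D2:**
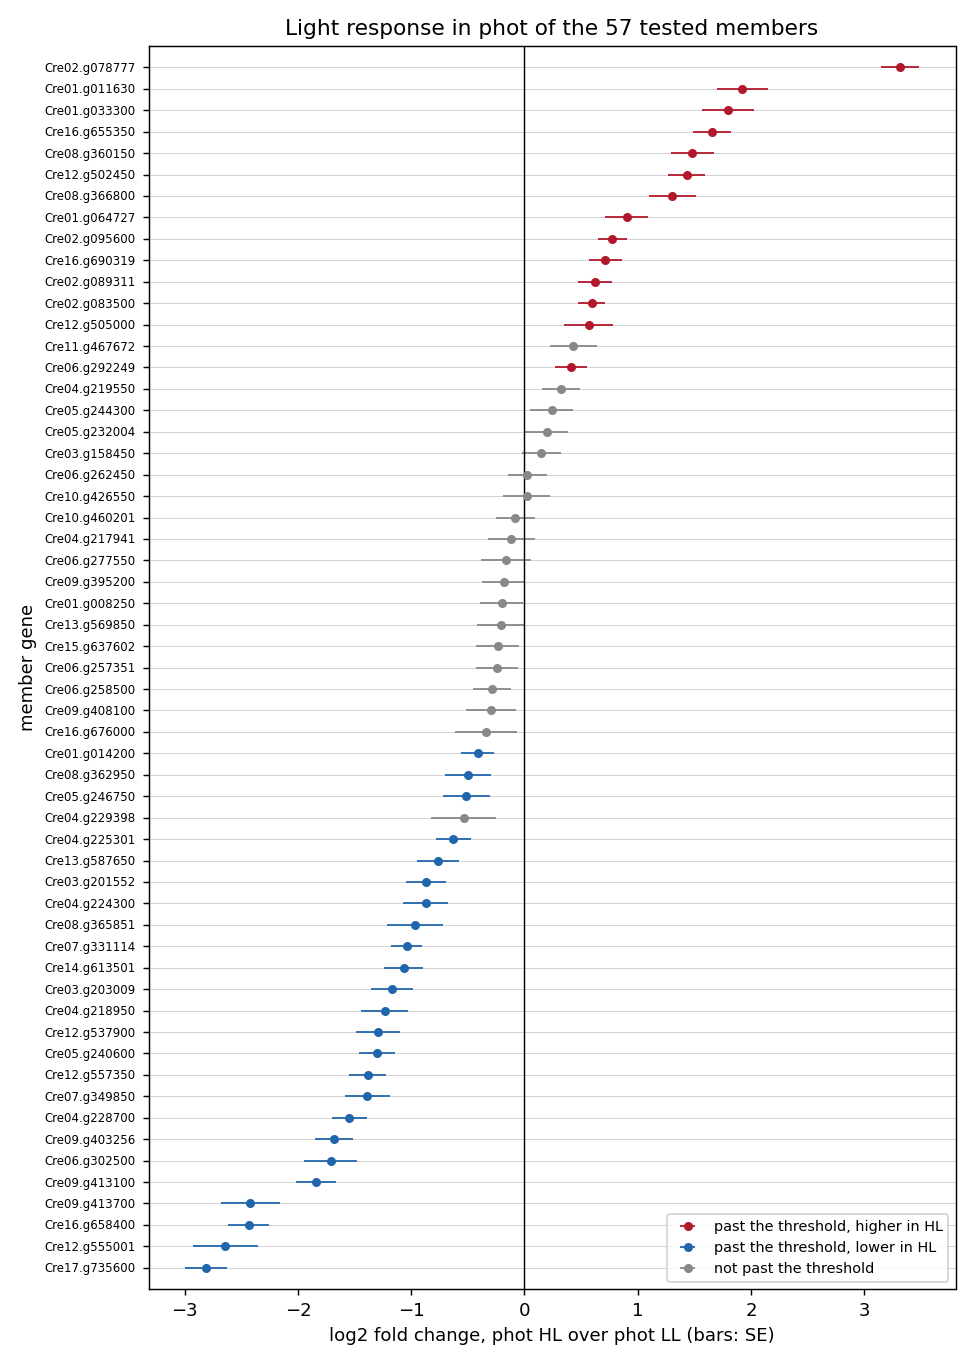
Log2 fold change of *phot* HL over *phot* LL for the 57 tested members, with bars for the SE. The 14 members past the threshold and higher in HL span 0.41 to 3.31, the 24 lower in HL span -2.81 to -0.41, and the 19 grey members lie between -0.54 and 0.43.

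Separation of the libraries could be counted for all 60 members. In 16 of them the 3 HL libraries lay above the 3 LL libraries in CPM, in 27 they lay below, and in 17 the conditions overlapped. Over all tested genes the shares were 37.8% above and 30.6% below, 68.4% in either direction.

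The strongest signal of the set was Cre06.g292249 (chromosome 6, 6377397 to 6410484, an annotated span of 33088 bp). All positions here are from the RefSeq annotation of assembly Chlamydomonas_reinhardtii_v5.5, whereas the authors name their assembly as version 5. It had 133, 145 and 137 CPM in *phot* HL and 90.3, 116 and 102 CPM in *phot* LL, against 0.488 to 0.947 CPM in WT HL and 0.556 to 0.737 CPM in WT LL. Its HL libraries all lay above its LL libraries, by 0.41 ± 0.14 (edgeR adjusted p = 0.022). The call was lost when *phot* HL library A, B or C or *phot* LL library A or C was left out, with fold changes from 0.27 to 0.56 over the 12 fits that leave out a library. It was also lost with upper-quartile factors in place of TMM (0.29, edgeR adjusted p = 0.083). Its span overlaps that of the next gene, Cre06.g292282, by 6929 bp, and that neighbour averaged close to 0 CPM in both strains.

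Behind it, Cre04.g217941 (chromosome 4, 602670 to 609651) had 23.6, 15.7 and 14.8 CPM in *phot* HL and 18.2, 18.8 and 21.3 CPM in *phot* LL. Cre05.g244300 (chromosome 5, 1381528 to 1388597) had 17.4, 17.4 and 15.4 CPM in *phot* HL and 15.4, 12.1 and 14.8 CPM in *phot* LL. For neither did the test pass, with -0.12 ± 0.21 (edgeR adjusted p = 0.65) and 0.24 ± 0.19 (edgeR adjusted p = 0.29). In Cre05.g244300 the lowest HL library and the highest LL library nearly coincided, while in Cre04.g217941 the conditions overlapped.

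Higher levels in HL were found for Cre02.g095600 (chromosome 2, 3824828 to 3827573), with 16.6, 20.4 and 15.4 CPM in *phot* HL and 11.5, 8.51 and 10.4 CPM in *phot* LL, a rise of 0.77 ± 0.13 (edgeR adjusted p = 0.00013). Cre16.g690319 (chromosome 16, 7674846 to 7680007) had 18.6, 15.7 and 17.1 CPM in HL and 10.9, 9.36 and 11 CPM in LL, a rise of 0.71 ± 0.15 (edgeR adjusted p = 0.00078). Neither gene had overlapping libraries.

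The other 5 of the 10 most abundant members fell in HL. Cre04.g228700 (chromosome 4, 3641377 to 3645338) had 5.66, 7.85 and 6.24 CPM in *phot* HL and 15.4, 19.2 and 22.6 CPM in *phot* LL, a fold change of -1.55 ± 0.16 (edgeR adjusted p = 1.4e-06). For Cre12.g557350 (chromosome 12, 7323249 to 7330534) the values were 7.4, 5.57 and 6.64 CPM in HL and 18.9, 15.2 and 16.9 CPM in LL (-1.39 ± 0.16, edgeR adjusted p = 5e-06). Even the lowest LL library of these genes exceeded the highest HL library by a wide gap. Cre07.g331114 (chromosome 7, 2711793 to 2715755) followed with 7.19, 7.85 and 7.25 CPM in HL and 14.4, 13.6 and 17.6 CPM in LL (-1.04 ± 0.14, edgeR adjusted p = 1.8e-05). Cre05.g246750 (chromosome 5, 976969 to 987294) had 7.64, 10.7 and 7.94 CPM in HL and 13.2, 11.4 and 12.6 CPM in LL. Its fold change of -0.51 ± 0.20 passed narrowly (edgeR adjusted p = 0.043), and it passed in 5 of the 12 fits that leave out a library, being lost without *phot* HL library A or C, any *phot* LL library, or WT LL library A or B. With library totals in place of TMM it did not pass either (edgeR adjusted p = 0.14).

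The last of these, Cre16.g658400 (chromosome 16, 2194002 to 2195908), was the member nearest to absence in the wild type. It had 4.2, 3.1 and 3.36 CPM in *phot* HL and 22.2, 16.1 and 19.1 CPM in *phot* LL, against counts of 0, 2 and 3 in WT HL and 0, 1 and 1 in WT LL. Every wild-type library was at or under the floor of 3 counts, which allowed 0.0885 to 0.111 CPM, so the gene averaged at least 111-fold higher in the mutant than that floor per library. Within the mutant it fell by 2.44 ± 0.18 in HL (edgeR adjusted p = 5.7e-08).

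Among the members that rose, Cre02.g078777 (chromosome 2, 771148 to 777657) had the largest rise of those tested. It had 13.6, 15.2 and 11.4 CPM in *phot* HL and 1.66, 1.18 and 1.14 CPM in *phot* LL, a difference of 3.31 ± 0.17 (edgeR adjusted p = 2.1e-09). The highest LL library thus stood far below the lowest HL library, and WT LL had 0.417 to 0.737 CPM. Cre01.g011630 (chromosome 1, 2137756 to 2142630) had 13.3, 16.8 and 8.34 CPM in HL and 3.87, 3.72 and 2.36 CPM in LL (1.93 ± 0.22, edgeR adjusted p = 4.9e-06). Its HL libraries were spread widely, yet the lowest of them was above every LL library.

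Weaker but separated rises were measured for members with lower levels. Cre01.g033300 (chromosome 1, 4811030 to 4814601) had 4.17, 6.87 and 5.99 CPM in *phot* HL and 1.89, 0.995 and 1.96 CPM in *phot* LL (1.80 ± 0.23, edgeR adjusted p = 1.2e-05). The 3 values of Cre16.g655350 (chromosome 16, 1803677 to 1814090) were 8.3, 7.49 and 6.39 CPM in HL and 2.14, 2.58 and 2.25 CPM in LL (1.66 ± 0.17, edgeR adjusted p = 1.2e-06). In each, every HL library was more than 2 times as high as every LL library. Cre08.g360150 (chromosome 8, 681103 to 685632) had 8.99, 7.14 and 8.48 CPM in HL and 3.77, 2.32 and 2.64 CPM in LL (1.48 ± 0.19, edgeR adjusted p = 1.2e-05). Cre12.g502450 (chromosome 12, 2830337 to 2834918) had 5.73, 7.55 and 5.7 CPM in HL and 2.78, 1.95 and 2.22 CPM in LL (1.43 ± 0.16, edgeR adjusted p = 3.9e-06). The remaining rises ran down to 0.41, and the median of the 14 was 1.10. The weakest by rank, Cre12.g505000, had 3.99, 4.39 and 4.62 CPM in HL and 3.2, 3.02 and 2.47 CPM in LL (0.57 ± 0.22, edgeR adjusted p = 0.035), and its call was lost without any *phot* HL library, without *phot* LL library A or C, with upper-quartile factors (adjusted p = 0.088) and with library totals (adjusted p = 0.052).

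Falls were led by Cre17.g735600 (chromosome 17, 5185560 to 5190912), the sole member on its chromosome. Its values were 2.15, 2.12 and 2.06 CPM in *phot* HL and 16.8, 13.8 and 13.5 CPM in *phot* LL, against 0 to 0.109 CPM in WT HL and 0.0348 to 0.147 CPM in WT LL. The HL libraries were nearly equal, and the fold change was -2.81 ± 0.18 (edgeR adjusted p = 2e-08). Cre12.g555001 (chromosome 12, 7611555 to 7627320) had 0.868, 1.36 and 1.26 CPM in HL and 7.8, 6.52 and 7.43 CPM in LL (-2.64 ± 0.29, edgeR adjusted p = 2.5e-06). Cre09.g413700 (chromosome 9, 7472736 to 7475677) had 2.22, 1.12 and 0.974 CPM in HL and 6.74, 8.18 and 7.93 CPM in LL (-2.42 ± 0.26, edgeR adjusted p = 2.2e-06). After 60 min of high light these genes were therefore near or little above the 1 CPM that had set the limit for the wild type.

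Also past the threshold downward, Cre09.g413100 (chromosome 9, 7347870 to 7354415) had 4.48, 3.6 and 3.1 CPM in *phot* HL and 14.3, 12.6 and 13 CPM in *phot* LL (-1.84 ± 0.18, edgeR adjusted p = 7.5e-07). It lies 118321 bp and 18 genes from Cre09.g413700, which fell as well. Cre06.g302500 (chromosome 6, 7800803 to 7802176) had 1.25, 2.6 and 2.89 CPM in HL and 8.18, 6.63 and 7.11 CPM in LL (-1.71 ± 0.23, edgeR adjusted p = 2.3e-05). Cre04.g218950 had 2.01, 2.6 and 1.88 CPM in HL and 4.92, 5.16 and 5.11 CPM in LL (-1.24 ± 0.21, edgeR adjusted p = 0.00016). The 24 falls had a median of -1.27, and only 1 of them had overlapping libraries. Of the 19 members not called, 16 overlapped, and the last of them by rank, Cre16.g676000, had 3.72, 3.33 and 2.49 CPM in HL and 4.35, 4.57 and 3.04 CPM in LL (-0.34 ± 0.27, edgeR adjusted p = 0.30).

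**Figure D3:**
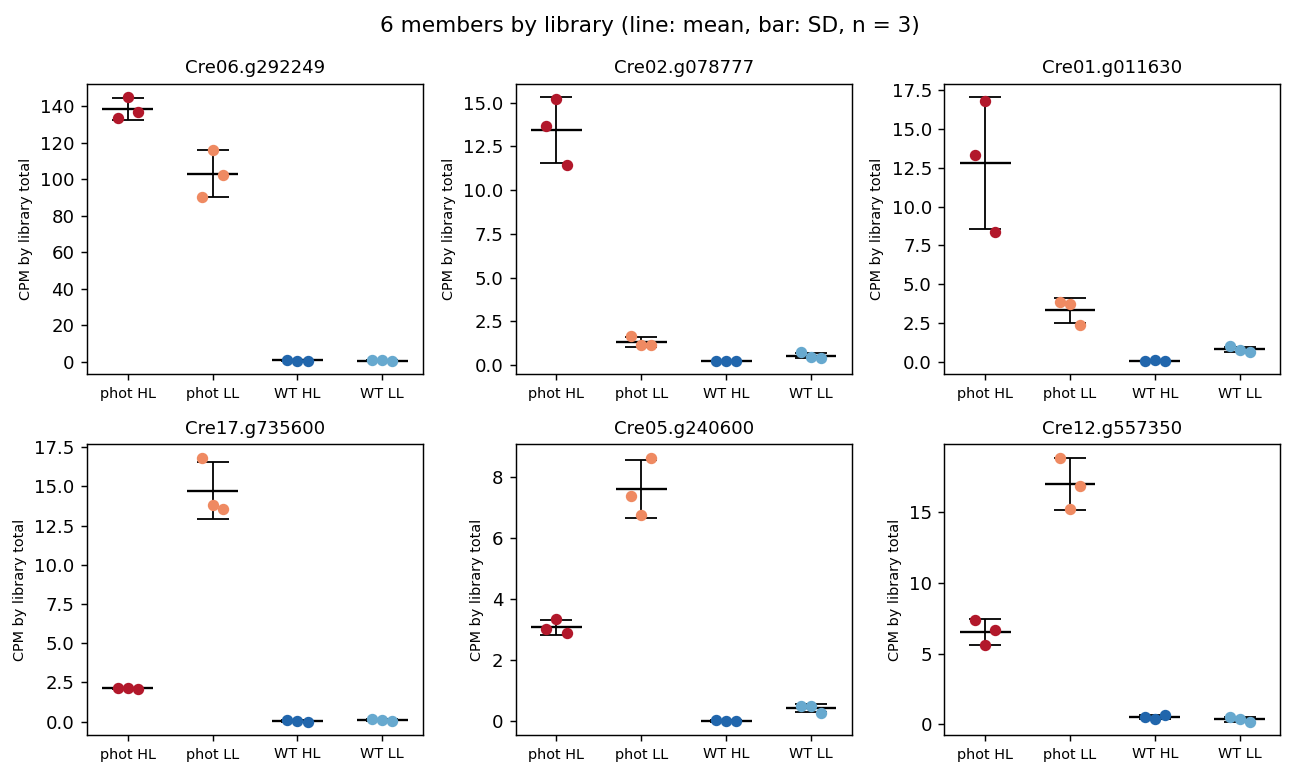
CPM by library total of 6 members in each library of *phot* HL, *phot* LL, WT HL and WT LL, with a line for the mean and a bar for the SD (n = 3); each panel has its own vertical axis. Cre02.g078777 and Cre01.g011630 are highest in *phot* HL, Cre17.g735600, Cre05.g240600 and Cre12.g557350 are highest in *phot* LL, and Cre06.g292249 is high in both.

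The 3 members outside the test were the most one-sided. Cre01.g003300 had 0.66, 0.796 and 0.65 CPM in *phot* HL and 12.8, 10.6 and 14.3 CPM in *phot* LL. Cre04.g213400 had 0.868, 0.501 and 0.18 CPM in HL and 9.94, 9.8 and 3.93 CPM in LL. In HL the mutant was thus near silent for these genes as well. Cre07.g325760 was the mirror image, with 6.46, 10.3 and 6.86 CPM in HL and 0.639, 0.332 and 0.25 CPM in LL, against 0.565 to 0.762 CPM in WT HL and 0.66 to 0.988 CPM in WT LL, so that before the shift the mutant lay below the WT LL libraries. A fit without the low-count filter gave them fold changes of -4.17 ± 0.24, -3.95 ± 0.40 and 4.21 ± 0.26. These exceed the range of the tested members, and all 3 passed the threshold in that fit.

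Replicates of the members were more variable at the median than those of other genes in the members' whole range of *phot* mean, which were not matched to them in level. The median coefficient of variation over the 3 libraries was 14.2% in *phot* HL and 13.8% in *phot* LL, beside 8.60% and 8.61% in 11544 other genes within the same range of *phot* mean. Most members lie near the low end of that range, and the part of depth in this difference was not tested.

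The same fit gave the light response of the members in the wild type, which was added after the counts had been seen. Because the choice held each member under 1 CPM in both WT groups, and members entered the fit through *phot* libraries alone, the WT values and all differences that contain them are a description, from which nothing is read against genes without that cap. They rest on 0 to 30 reads per library. In WT HL 3 of the 57 tested members rose and 32 fell, whereas 38.9% of all tested genes rose and 35.1% fell (73.9% in either direction). The median fold change was -1.09 for the members and 0.05 for all tested genes, and the 32 falls ran from -5.11 to -0.90 with a median of -1.88. TMM factors were 0.66 to 1.00 in the wild type and 1.09 to 1.23 in the mutant. With library totals in place of TMM, the medians were -0.82 for the members and 0.31 for all genes, with 3 members higher and 27 lower, beside 46.3% and 25.0% of all genes. A nearer comparison, also chosen after the values were seen, is with the 162 other tested genes under 1 CPM in every WT library. Of these, 11 (6.79%) rose and 52 (32.1%) fell in WT HL, with a median of -0.41. They too entered the fit through *phot* libraries alone, and all rank below the members in *phot* mean. They were not matched to the members in WT reads, so nothing is read from this comparison here or below.

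In CPM, the WT HL libraries lay wholly above the WT LL libraries in 3 of 60 members and wholly below in 24, beside 46.3% and 22.6% of all tested genes (68.9% in either direction). The 3 that lay wholly above were Cre08.g360150, Cre08.g362950 and Cre04.g213400, the last of which was not tested. By the edgeR fit the 3 members that rose in WT HL were Cre08.g360150, Cre08.g362950 and Cre12.g505000. Over the 12 fits that leave out a library 0 to 3 members rose, with 0 without WT HL library A or WT LL library C, and 26 to 33 members fell.

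Of the 14 members raised in *phot* HL, 2 rose, 7 fell and 5 were not called in WT HL. Among all tested genes raised in *phot* HL, 73.3% rose and 10.8% fell in WT HL, and among the 30 raised genes of the 162 others under the wild-type limit 23.3% rose. Of the 24 members lowered in *phot* HL, 1 rose, 15 fell and 8 were not called, beside 6.83% that rose and 71.2% that fell among all tested genes so lowered. Among the 43 lowered genes of the 162 others, 0% rose and 48.8% fell. Of the 19 members not called in *phot*, none rose, 10 fell and 9 were not called, beside 34.4% that rose and 29.0% that fell among all such genes. Among the 89 genes of the 162 others not called in *phot*, 4.49% rose and 31.5% fell.

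Both strains passed the threshold with opposite signs in 8 of 57 members (14.0%; 5.27% of all tested genes) and with the same sign in 17 (29.8%; 42.6% of all tested genes). The choice capped the WT side of these calls but not that of all tested genes, so nothing is read from the difference in shares. Higher in *phot* HL and lower in WT HL were Cre02.g095600, Cre02.g083500, Cre01.g011630, Cre02.g078777, Cre01.g064727, Cre12.g502450 and Cre01.g033300. The opposite held for Cre08.g362950, with -0.50 ± 0.20 in *phot* and 1.08 ± 0.41 in WT.

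Cre01.g011630 is given by single library as an example of opposite signs. Its wild-type counts were 2, 3 and 2 in HL and 27, 24 and 19 in LL, a fold change of -3.60 ± 0.55, while in the mutant the same shift went with a rise. In HL the mutant therefore differed most from the wild type, and in LL the levels were closer, with 2.36 to 3.87 CPM in *phot* LL and 0.66 to 0.995 CPM in WT LL. Cre02.g078777 had 7, 8 and 8 wild-type counts in HL and 20, 15 and 12 in LL (-1.36 ± 0.31).

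**Figure D4:**
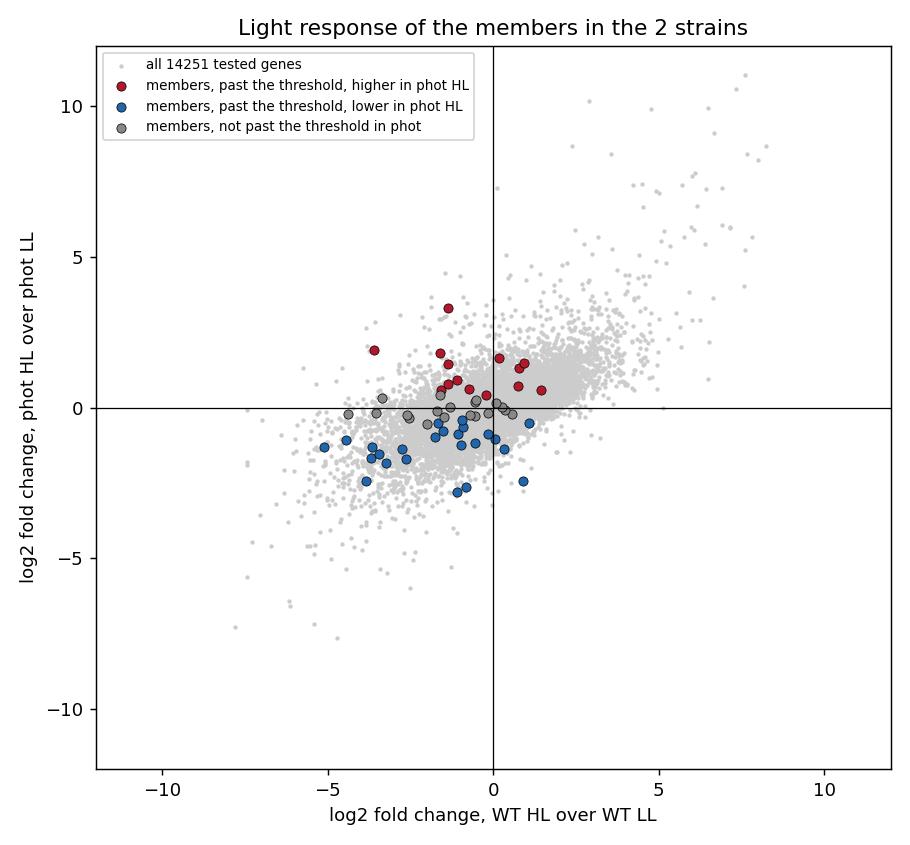
Log2 fold change of HL over LL in *phot* (vertical axis) and in WT (horizontal axis), with all 14251 tested genes in light grey and the 57 tested members in colour by their call in *phot*. Most members lie left of 0 on the wild-type axis, where 32 were called lower and 3 higher, and 7 of the red members are called lower in WT HL.

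The difference between the strains, with the WT response to light subtracted from that of *phot*, shares the capped WT values and is likewise a description. In the fit it passed the threshold as positive in 20 members and as negative in 5, beside 23.5% and 28.3% of all tested genes (51.8% in either direction). The positive differences ran from 1.33 to 5.52, and the median over the 57 members was 0.91, beside -0.09 over all tested genes. Among the 162 other genes under the wild-type limit 31 (19.1%) were positive and 10 (6.17%) negative, with a median of 0.37. The negative ones belonged to Cre12.g557350, Cre16.g658400, Cre07.g331114, Cre12.g555001 and Cre08.g362950, and their number was 3 without WT HL library A and 2 without WT HL library B.

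The study's gene lists held few members, but the set was only 60 of the 17741 genes, so nothing is read from these counts. None of 55 photoprotection genes and none of 73 genes of the carbon-concentrating mechanism were members, and 1 of 407 transcription factors was. Genes under 1 CPM throughout the wild type were rare in these lists to begin with: 0, 1 and 22 of them, in that order, beside 19.2% of all genes.

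That member was Cre05.g240600 (chromosome 5, 3333414 to 3336169), listed as a C2H2 zinc-finger factor, a class of DNA-binding proteins. It had 3.02, 3.36 and 2.89 CPM in *phot* HL and 7.38, 6.78 and 8.65 CPM in *phot* LL, and its wild-type counts were 1, 0 and 0 in HL and 14, 15 and 8 in LL. HL was lower than LL in both strains without overlap, with fold changes of -1.31 ± 0.16 in *phot* (edgeR adjusted p = 7.7e-06) and -5.11 ± 0.61 in WT, a difference of 3.81 ± 0.70 between the responses.

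The members did not lie next to each other. Gene identifiers follow the position on the chromosome only in part: 10 of the 120 neighbours of members in id order lay more than 100000 bp away in the annotation, at 514 to 5421 kb, for 6 members. In id order 0 pairs of members were adjacent, 0 had a single gene between them and 0 had 5 or fewer. The same counts were 0 when genes were ordered by annotated start. With 60 members among 17741 genes, a scattered set would also hold few such pairs, so nothing is read from these counts of 0. Cre04.g217939, which missed the set by a single wild-type library, had 1 gene between it and the member Cre04.g217941. Members were found on 17 chromosomes with at most 8 on any of them, and successive members were separated by a median of 118 genes. The 8 were on chromosome 4, with 553 of the 17741 genes by id, while chromosome 3, with 1601, held 3. The members were thus not spread evenly by gene number, and this unevenness was not tested. The closest in id order were Cre04.g218950 and Cre04.g219550, with 11 genes and 93299 bp between them. The first of these fell in *phot* HL and the second was not called. In bp, Cre03.g201552 and Cre03.g203009 lay closer, 64435 bp apart with 44 genes between them in id order, and both fell in *phot* HL. The mirrored set, for comparison, held 60 genes under 1 CPM in every *phot* library and highest in WT. It had 1 adjacent pair and 5 pairs with at most 5 genes between in id order, and 2 and 3 by annotated start. Neighbouring members did appear under other limits: 2 adjacent pairs with a wild-type limit of 0.5 CPM, 1 with a limit of 2 CPM, 1 when ranked by the higher *phot* group mean, 3 among the top 120, and 1 without WT HL library A.

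**Figure D5:**
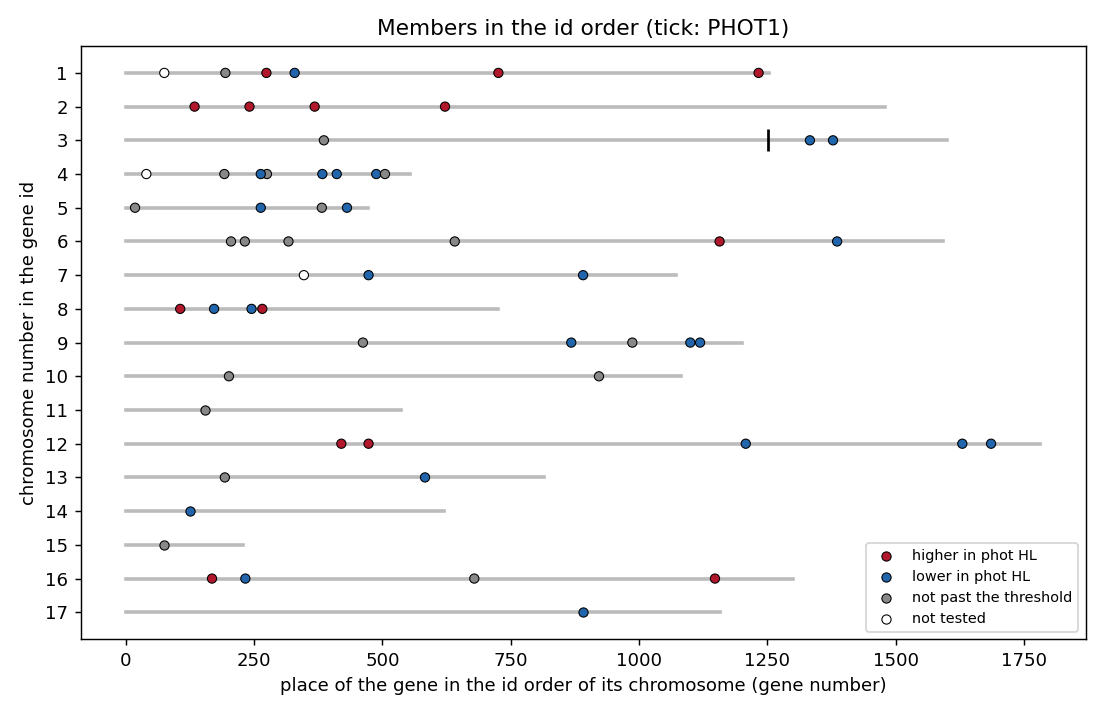
Place of the 60 members (circles) in the id order of the genes of each chromosome, as the gene's number along the chromosome, coloured by their call in *phot*; the tick on chromosome 3 marks *PHOT1*. The circles are spread over 17 chromosomes and none are adjacent, with at least 11 genes between any pair.

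Chromosome 3, which carries *PHOT1*, held 3 members. By annotated start, Cre03.g201552 and Cre03.g203009 lay 199 kb and 270 kb beyond it with 28 and 41 genes between, and Cre03.g158450 lay 5989 kb away. Cre03.g201552 had 3.3, 2.89 and 2.42 CPM in *phot* HL and 4.92, 4.57 and 6.15 CPM in *phot* LL, and Cre03.g203009 had 2.05, 3.48 and 2.35 CPM in HL and 5.91, 6.19 and 5.5 CPM in LL. Both fell in HL, with fold changes of -0.87 ± 0.18 and -1.17 ± 0.18 (edgeR adjusted p = 0.0008 and 8.2e-05). Cre03.g203009 also had the smallest ratio of the set, 4.97 times its wild-type mean.

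Of the 17741 genes, 305 were under 1 CPM in WT and at 1 CPM or more in *phot*. Among these 305, 20 pairs were adjacent in id order, and 4 members had such a neighbour. The number of pairs that a scattered set of this size would give was not tested. These were Cre01.g008250, Cre01.g011630, Cre07.g349850 and Cre10.g460201, and the neighbours averaged 1.00, 1.54, 3.18 and 1.19 CPM in the mutant.

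Most direct neighbours of the members were not near silent in the wild type. Of the 120 in id order, 19 (15.8%) were under 1 CPM throughout the wild type, beside 19.2% of all genes. Of the 100 neighbours averaging at least 1 CPM over the strains, 17 (17.0%) were at least 4 times higher in *phot*, beside 5.97% of all such genes (0.1 CPM was added to each mean). Their median difference was 0.98 on the log2 scale, beside 0.52 for all such genes. With neighbours taken by annotated start instead, 21 of 120 (17.5%) were under 1 CPM throughout the wild type, and 17 of the 98 that averaged at least 1 CPM (17.3%) were at least 4 times higher in *phot*. Around the mirrored set, in id order, 31 of 116 neighbours (26.7%) were under 1 CPM in every *phot* library, beside 18.8% of all genes. For a level at least 4 times higher in WT, the shares around that set and among all such genes were 9.41% and 3.06%.

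In all, 15 members had at least 1 neighbour that was at least 4 times higher in *phot*, and Cre02.g083500 and Cre13.g587650 had them on both sides. Cre10.g460150, 373 bp from the member Cre10.g460201, averaged 54.3 CPM in *phot* HL and 92.2 CPM in *phot* LL, against 0.167 CPM in WT HL and 3.19 CPM in WT LL. The member itself had 5.49, 5.13 and 4.51 CPM in *phot* HL and 5.11, 6.08 and 4.64 CPM in *phot* LL, which overlapped, with a fold change of -0.08 ± 0.17 that did not pass (edgeR adjusted p = 0.70). Cre12.g557300, listed as a bZIP transcription factor, lies 47 bp from Cre12.g557350 and averaged 63.6 and 68.5 CPM in *phot* HL and LL, against 7.30 and 1.63 CPM in WT HL and LL. Here the member fell in *phot* HL while the means of its neighbour lay close together.

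The best-known neighbour was *LHCSR1* (Cre08.g365900), a stress-related light-harvesting protein that dissipates excess excitation energy. It lies 1025 bp from the member Cre08.g365851 and averaged 203 CPM in *phot* HL and 0.673 CPM in *phot* LL, against 595 CPM in WT HL and 1.99 CPM in WT LL. The member moved the other way, with 8.02, 6.19 and 4.69 CPM in *phot* HL and 15.3, 13.3 and 7.9 CPM in *phot* LL (-0.97 ± 0.25, edgeR adjusted p = 0.0036), where HL library A just exceeded LL library C. Over the neighbour pairs that include a member and in which both genes were called in *phot*, 26 of 41 (63.4%) had the same sign, beside 55.9% of 4264 such pairs in the genome.

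In the annotation the median span of the members was 4838.5 bp (1142 to 33088), beside 4300 bp for all genes, and 63.3% carried an older locus tag, beside 70.7% of all matched genes. The annotation used here gives no gene symbol for any of them.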

How the data were processed

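RNA of the *phot* mutant and CC-125 was sequenced in 12 libraries, 3 per strain and light condition. The authors deposited raw counts per gene, from reads aligned with STAR (2.5.3a in the submitters' processing notes) to Phytozome assembly version 5 and counted on the reverse strand with HTSeq-count, with no pooling. The number of unused columns was 0. Groups came from the labels. Column names give the group but no replicate number. Total counts were 27136674 to 33906264, and chi-square per degree of freedom between replicates was 7.69 to 67.7 over 12 pairs, so no library was a repeat of another.

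The members and lists were chosen with earlier results of these data known. The fit used edgeR 4.0.16 (limma 3.58.1, R 4.3.3) with TMM factors, a coefficient for each of the 4 groups, a quasi-likelihood test, more than 1 CPM in at least 4 libraries, and Benjamini-Hochberg adjustment at 0.05 over 14251 genes. DESeq2 1.42.0 and limma-voom were alternatives. CPM per library used library totals. Floors (3 counts) cover counting error only. The genes named were the 10 highest members, the 6 largest separated rises and falls in *phot*, members of the study's lists, the 3 lowest, the 3 genes below, 3 genes at 1 CPM or more in exactly 1 WT library, and *PHOT1*. Other members and the neighbours were named after their values were seen. Of 17741 identifiers, 17738 matched RefSeq locus tags, with 0 symbols. Tables were handled in Python 3.11.15 with pandas 2.3.3. The fit was tested on simulated data. Products, protein similarity and promoter motifs, which had been planned, were not used here.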

Additional observations from a re-analysis of the deposited data

Results flagged for a closer look

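The difference in light response between the strains passed the threshold in 13 of the named members, as *phot* response minus WT response on the log2 scale (edgeR quasi-likelihood test, Benjamini-Hochberg adjusted over all tested genes). The choice of the set held the WT values under 1 CPM in both light conditions, so these differences are given as values and nothing is read from their number. The fits that leave out a library hold the same capped values, so passing in them speaks only of the weight of single libraries. It was positive for Cre01.g011630 (5.52), Cre02.g078777 (4.67), Cre05.g240600 (3.81), Cre01.g033300 (3.39), Cre12.g502450 (2.80), Cre16.g676000 (2.19), Cre02.g095600 (2.13), Cre04.g228700 (1.90) and Cre16.g655350 (1.49), and all 9 passed in each of the 12 fits that leave out a library.

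It was negative for Cre16.g658400 (-3.33), Cre12.g555001 (-1.83), Cre12.g557350 (-1.70) and Cre07.g331114 (-1.09). Of these, Cre12.g557350 passed in all 12 such fits, Cre07.g331114 in 11 (lost without WT HL library B), Cre16.g658400 in 9 (lost without WT HL library B or C or WT LL library A) and Cre12.g555001 in 4 (lost without any *phot* HL library, *phot* LL library A or C, WT HL library A or B, or WT LL library B). The wild-type side of each rests on at most 28 reads in a library, and on at most 3 for Cre16.g658400, whose fitted value is no bound.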

How the results depend on the processing

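Over 500 refits of single named members the light response in *phot* gave 471 outcomes as reported and 29 calls lost, with 0 reversed. The 471 include refits of members that were not called in the main fit, such as Cre04.g217941 and Cre05.g244300. The difference between strains gave 209 calls as reported and 12 lost. The 14 rises and 24 falls were 14 and 25 with DESeq2, 14 and 24 with limma-voom, and 12 to 14 and 21 to 25 when a library was left out. Against a fold threshold of 1 they were 6 and 9, and 1507 of all genes passed in place of 8399. Of all called genes, 52.9% were higher in *phot* HL with TMM and 43.0% with upper-quartile factors. The set depended on its limits: 22 members were shared at a wild-type limit of 0.5 CPM (16 rises and 14 falls of 48 tested, so no excess of falls, and 2 adjacent pairs), 20 at 2 CPM (18 rises and 22 falls of 60 tested, 1 pair), and 52 when ranked by the higher group mean (1 pair). Ranked by the lowest *phot* library, 46 members were shared, with 12 rises and 18 falls of 60 tested and 0 pairs. The top 30, all 30 of them members, held 9 rises and 10 falls, and the top 120 held 24 rises, 42 falls and 3 pairs. With CPM scaled by TMM factors, 47 members were shared, with 16 rises and 25 falls of 56 tested and 0 pairs. Without a library, 52 to 60 members and 0 to 1 adjacent pairs were found. Rises in WT HL were 1 with upper-quartile factors and 0 to 3 without a library. Differences between strains, 20 positive and 5 negative in the main fit, were 19 to 26 and 2 to 5 without a library. With library totals 19 were positive and 6 negative. Positive differences were 24 with upper-quartile factors and 26 with DESeq2. The causes were not tested. No paired analysis was possible because the columns carry no replicate numbers. Depth limits the wild-type side, where 1 CPM is about 30 reads.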
